A study of Zea mays with 14 samples.

Results

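Of the gene models of maize (Zea mays), measured in seedlings of line B73, 684 carried trimethylation of histone H3 at lysine 27 (H3K27me3) in root and none in shoot. They are a subset of 186790 in all, or 0.366%. They were chosen by the length of H3K27me3 listed for each gene in the deposited tables, above 0 in root and equal to 0 in shoot, so H3K27me3 itself is described here and not tested. They were 29.0% of the 2361 gene models with H3K27me3 in root. A further 1677 carried the mark in both organs, 4945 in shoot only and 179484 in neither organ. Seedlings were grown in soil, harvested after 14 days and separated into roots and shoots, with no treatment and no mutant. Chromatin came from 10 pooled seedlings, and the DNA of 3 parallel immunoprecipitations was combined into 1 library for each of H3K4me3, H3K9ac, H3K27me3 and H3K36me3. DNA methylation was read from fragments of up to 500 nucleotides released by McrBC, an enzyme that cuts DNA with methylated cytosine, and mRNA was sequenced from oligo(dT)-selected RNA. Each assay had 1 library per organ, so no difference has a replicate check, no p-value is given, and the 95% Wilson intervals cover counting error only. A root or shoot holds many cell types, so a mark or a transcript in few cells cannot be told apart from a weaker one in all cells.

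H3K27me3 is laid down by Polycomb repressive complex 2 and is known in plants for holding developmental genes silent in the tissues where they are not used. H3K4me3 and H3K9 acetylation (H3K9ac) usually mark the start of active genes, and H3K36me3 usually follows transcription along the gene body. The gene identifiers of the tables matched none of those in the RefSeq name table, so genes are given by identifier only, the organ tables hold no positions, and organ markers could not be checked.

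The root H3K27me3 of these genes was short and lightly covered. Its length ranged from 80 to 3333 bp, with a median of 251 bp and a middle range of 196 to 379 bp. Genes with the mark in both organs had a median root length of 384 bp (260 to 595 bp). Coverage within the mark, divided by what 1 read of 35 bases adds on the authors' scale, gave a median of 9 reads (middle range 7 to 18.5) in the genes marked in root only and of 18 reads in those marked in both organs. The lowest coverage of a listed H3K27me3 region was 1 read in root and 2 reads in shoot, and the 5th percentile was 5 reads in root and 6 reads in shoot. A length of 0 in shoot therefore says that no region was listed there, not that the mark was absent. Just inside the limit, the shortest root lengths were 80, 81 and 82 bp. Just outside it, the root-marked genes with the shortest shoot lengths had 99 and 105 bp there. Under 200 bp of root H3K27me3 was listed for 182 of the 684 genes, and 17 had 1000 bp or more.

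Gene models overlap, and some repeat the values of others. The 684 genes held 499 distinct sets of lengths and depths of all 5 marks. Of these sets, 356 belonged to 1 gene, 112 to 2 genes, 20 to 3 genes and 11 to 4 genes. Of the 162 genes with mRNA in both organs, 26 could be given a typed gene model through their summed mRNA coverage and covered length. All but 1 of the 26 were typed as protein coding, the other as protein coding without support. Their spans ranged from 87 to 7630 bp, and the root H3K27me3 length equalled a median of 17.7% of the span. The highest value was 101% of the span. Whether listed regions reach beyond the gene was not tested, since the organ tables hold no positions.

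The genes marked in root only carried H3K4me3 and H3K9ac more often than gene models at large, in both organs, while H3K36me3 was scarcer in root. H3K4me3 was listed on 327 of the 684 genes in root (47.8%, interval 44.1 to 51.6%) and on 430 in shoot (62.9%, 59.2 to 66.4%). Over all gene models it was listed on 19.8% in root and 25.7% in shoot. The shares of H3K4me3 were 61.1% and 75.1% in genes with H3K27me3 in both organs. In those with H3K27me3 in shoot only they were 49.9% and 67.3%. H3K9ac was listed on 104 of the genes in root (15.2%, 12.7 to 18.1%) and on 342 in shoot (50%, 46.3 to 53.7%), against 12.1% of all gene models in root and 24.8% in shoot. Its shares were 18.5% and 56.9% with H3K27me3 in both organs and 13.1% and 48.7% with H3K27me3 in shoot only. The higher shares of H3K4me3 and H3K9ac were thus not particular to the genes marked in root only. H3K36me3 was on 56 of the genes in root (8.19%, 6.36 to 10.5%) and on 72 in shoot (10.5%, 8.44 to 13.1%), against 14.0% and 11.5% of all gene models.

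In every class of H3K27me3 the shares of H3K4me3 and H3K9ac were lower in root than in shoot; the same held over all gene models. H3K36me3 went the other way: it was on more genes in root than in shoot among genes with H3K27me3 in both organs (6.74% in root, 4.65% in shoot), in shoot only (8.27% in root, 5.90% in shoot) and in neither organ (14.2% in root, 11.7% in shoot). The genes marked in root only had the reverse order. They had H3K36me3 in root and not in shoot in 28 cases and in shoot and not in root in 44 cases. The counts for genes with H3K27me3 in shoot only were 251 and 134 in the same order. The intervals of the root and shoot shares of H3K36me3 overlapped in the genes marked in root only, so this order is not outside counting error on its own.

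**Figure D1:**
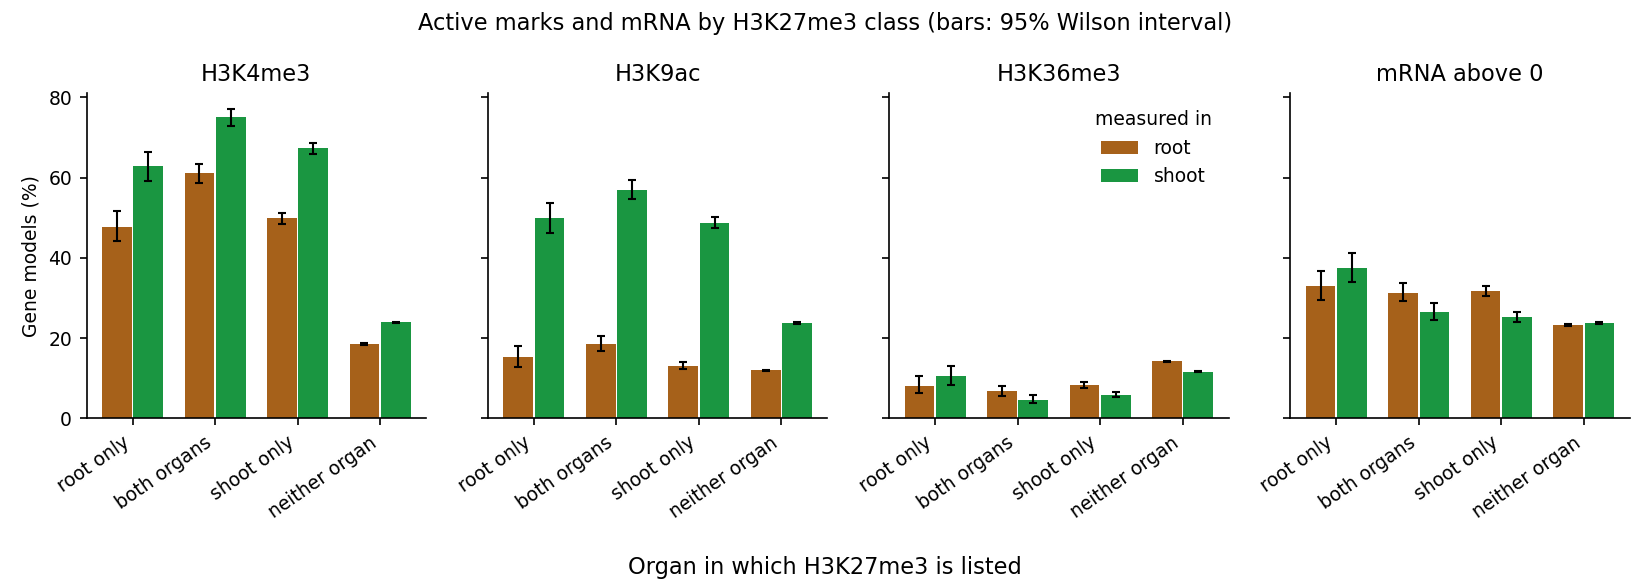
Share of gene models (%) with H3K4me3, H3K9ac, H3K36me3 or mRNA above 0 in root (left bar) and shoot (right bar), for genes with H3K27me3 listed in root only, in both organs, in shoot only and in neither organ; bars show 95% Wilson intervals. Genes with H3K27me3 in root only have H3K9ac on 15.2% in root and 50% in shoot, and are the class with more H3K36me3 and mRNA in shoot than in root among the 3 with H3K27me3.

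Of the genes that carried an active mark in shoot, H3K4me3 was mostly found in root too, whereas H3K9ac and H3K36me3 mostly were not. H3K4me3 was listed in root for 311 of the 430 genes that had it in shoot (72.3%, interval 67.9 to 76.3%), which is close to the 73.8% of all gene models with H3K4me3 in shoot. H3K9ac was listed in root for 91 of 342 (26.6%, 22.2 to 31.5%), against 47.1% of all gene models. H3K36me3 was listed in root for 28 of 72 (38.9%, 28.5 to 50.4%), against 73.4% of all gene models. Genes with H3K27me3 in both organs had H3K9ac in root in 29.6% of cases (26.8 to 32.6%) and those with H3K27me3 in shoot only in 24.4% (22.7 to 26.1%). All 3 classes with H3K27me3 were thus below the share over all gene models. For H3K36me3 those classes had 53.8% (42.9 to 64.5%) and 54.1% (48.4 to 59.7%), whose intervals overlap that of the genes marked in root only. Marks listed in both organs were shorter in root about as often as over all gene models. Where H3K4me3 was listed in both organs it was shorter in root in 228 of 311 genes (73.3%), with medians of 1052 bp in root and 1302 bp in shoot, and it was shorter in root in 73.8% of all such gene models. H3K9ac was shorter in root in all 91 genes that had it in both organs, with medians of 597 bp in root and 1389 bp in shoot, against 99.5% of all such gene models. H3K36me3 was shorter in root in 19 of 28 genes, against 73.1%.

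Combinations of the 3 active marks changed between the organs for most genes that had any. Fewer of the 3 marks were listed in root than in shoot for 303 of the 684 genes (44.3%, interval 40.6 to 48.0%) and more for 34 genes (4.97%, 3.58 to 6.87%). Over all gene models the shares were 16.2% and 4.25%. Among genes with an active mark in shoot, 67.0% had fewer marks in root (62.6 to 71.2%), compared with 60.8% of genes with H3K27me3 in both organs (58.2 to 63.4%), 65.8% of those with it in shoot only (64.2 to 67.3%) and 52.7% of those with it in neither organ (52.3 to 53.1%). The most frequent change was H3K4me3 alone in root where shoot had H3K4me3 and H3K9ac, in 135 genes. The pair was listed in both organs for 52 genes. In 45 genes root had none of the 3 marks where shoot had that pair, and in 56 genes root had none where shoot had H3K4me3 alone. A set of 212 genes had none of the 3 marks in either organ. Without any active mark were 49.1% of the genes in root and 33.9% in shoot, against 75.8% and 69.9% of all gene models.

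**Figure D2:**
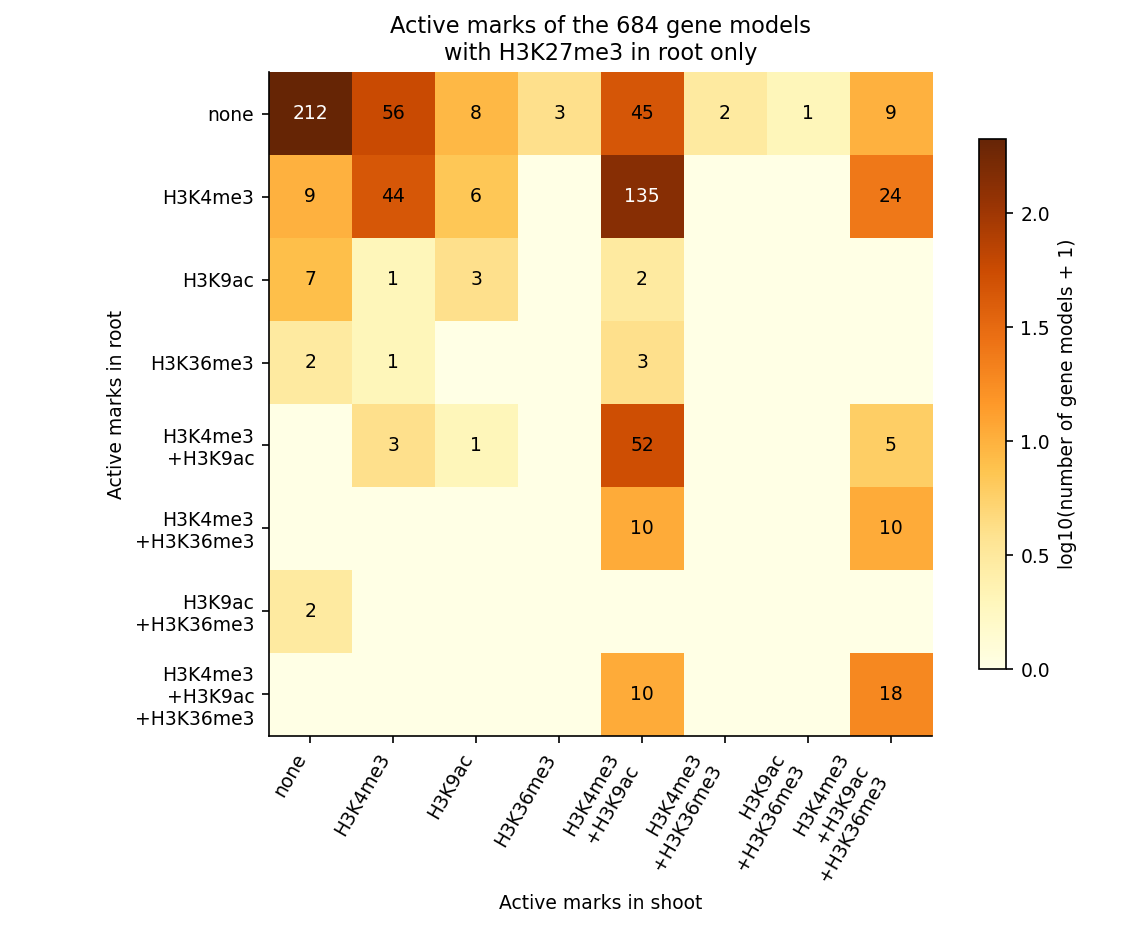
Number of the 684 gene models with H3K27me3 in root only for each combination of H3K4me3, H3K9ac and H3K36me3 in root (down the page) and in shoot (across); the colour scale is log10(number + 1). The largest cell off the diagonal is H3K4me3 alone in root with H3K4me3 and H3K9ac in shoot, with 135 genes.

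To set genes of like chromatin side by side, gene models with the same active marks in shoot were compared across the H3K27me3 classes. Of the genes with H3K4me3 and H3K9ac in shoot, the 257 with H3K27me3 in root only had H3K4me3 in root in 80.5% of cases (75.3 to 84.9%), above the 70.5% of the 20519 genes with H3K27me3 in neither organ (69.9 to 71.1%). They had H3K9ac in root in 24.9% (20.0 to 30.5%), below 40.3% (39.6 to 41.0%), and H3K36me3 in root in 8.95% (6.04 to 13.1%), below 33.4% (32.7 to 34.0%). The other classes with H3K27me3 lay close to them: genes with it in both organs had the 3 marks in root in 84.7%, 28.5% and 6.54%, and genes with it in shoot only in 79.8%, 22.7% and 9.94%, all with overlapping intervals. The difference from genes without H3K27me3 was thus shared by all 3 classes that carried it. With all 3 marks in shoot, the 66 genes with H3K27me3 in root only had H3K4me3 in root in 86.4% of cases (76.1 to 92.7%), H3K9ac in 34.8% (24.5 to 46.9%) and H3K36me3 in 42.4% (31.2 to 54.4%). The 16976 genes with H3K27me3 in neither organ had them in 90.3% (89.9 to 90.8%), 70.3% (69.6 to 71.0%) and 81.1% (80.5 to 81.7%). In this group the class with H3K27me3 in shoot only, of 196 genes, had H3K9ac in root in 56.1% (49.1 to 62.9%) and H3K36me3 in 69.9% (63.1 to 75.9%). The intervals of those values do not overlap the ones of the genes marked in root only. Those of the 61 genes with H3K27me3 in both organs do, with H3K9ac in root in 57.4% (44.9 to 69.0%) and H3K36me3 in 60.7% (48.1 to 71.9%).

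DNA methylation was rare on these genes in both organs, as it was over all gene models. It was listed on 19 of the 684 in root (2.78%, interval 1.79 to 4.30%) and on 18 in shoot (2.63%, 1.67 to 4.12%), against 3.68% and 4.19% of all gene models. In both organs it was listed for 6 of the genes (0.877%), against 0.926% of all gene models.

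Messenger RNA was listed more often for these genes than for gene models at large, and more of them had it in shoot than in root. The mRNA depth was above 0 for 226 of the 684 genes in root (33.0%, interval 29.6 to 36.7%) and for 257 in shoot (37.6%, 34.0 to 41.3%), against 23.7% and 23.8% of all gene models. The root and shoot intervals of the 684 genes overlapped. The depth was above 0 in both organs for 162 genes, in root only for 64, in shoot only for 95 and in neither for 363. Genes below a mean depth of about 2.53 in root and 2.55 in shoot are listed at 0, so a value of 0 does not show that a gene was silent. The class with H3K27me3 in shoot only had the opposite order, with mRNA in 31.7% in root (30.4 to 33.0%) and 25.3% in shoot (24.1 to 26.5%). Those with H3K27me3 in both organs had 31.4% in root (29.2 to 33.6%) and 26.6% in shoot (24.5 to 28.8%). Among genes with the same active marks in shoot, those marked in root only were not always above those with H3K27me3 in neither organ. In root, mRNA was above 0 for 36.6% against 50.7% with H3K4me3 and H3K9ac in shoot. It was 53.0% against 71.4% with all 3 marks and 23.7% against 10.5% with none. In shoot the shares were 44.4% against 50.1%, 83.3% against 75.5% and 22.8% against 10.7%, in the same order. Of the genes above 0, the median was 113.5 reads in root and 181 reads in shoot for genes with H3K27me3 in root only, and 140 and 151 reads for all gene models.

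The direction of the difference pointed to shoot. A gene counted as higher in root or shoot when reads + 12 differed by a factor of 4 or more between the organs. The larger value also had to be 146 reads or above, the median of listed values. Of the 177 genes that reached this level, 25 were higher in root (14.1%, interval 9.75 to 20.0%) and 71 were higher in shoot (40.1%, 33.2 to 47.5%), against 9.01% and 13.2% of all gene models at this level. A difference under 2-fold was found for 47 of the 177 (26.6%, 20.6 to 33.5%), against 23.9% with H3K27me3 in both organs (19.7 to 28.6%), 25.5% with it in shoot only (22.9 to 28.3%) and 65.2% with it in neither organ (64.6 to 65.8%). The intervals of the 3 classes with H3K27me3 overlapped. In the class with H3K27me3 in shoot only the order was turned, with 34.2% higher in root (31.3 to 37.2%) and 22.3% higher in shoot (19.8 to 25.0%). It was turned as well with H3K27me3 in both organs, with 35.9% higher in root (31.1 to 41.1%) and 26.1% in shoot (21.8 to 31.0%). Large differences of the genes marked in root only mostly pointed to shoot. At 16-fold or more, 13 genes were higher in root (7.34%) and 54 in shoot (30.5%), against 3.94% and 8.06% of all gene models at this level. At 64-fold or more, 2 were higher in root (1.13%) and 19 in shoot (10.7%), against 0.515% and 2.39%. Of the 25 genes higher in root, 15 had a listed shoot value of 0 (60%, 40.7 to 76.6%). Of the 71 higher in shoot, 47 had a listed root value of 0 (66.2%, 54.6 to 76.1%). Both intervals held the shares over all gene models so called, 51.2% and 62.1%. With 1 gene per set of equal mark values, 130 genes reached the level. Among these, 18 were higher in root (13.8%) and 48 in shoot (36.9%), against 8.84% and 12.8% of all gene models taken the same way. The excess in root depended on the scale: with a pseudocount of 120 reads, 6 of the 177 were higher in root (3.39%) and 47 in shoot (26.6%), against 3.27% and 6.66% of all gene models, so the share higher in root was then that of the background.

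**Figure D3:**
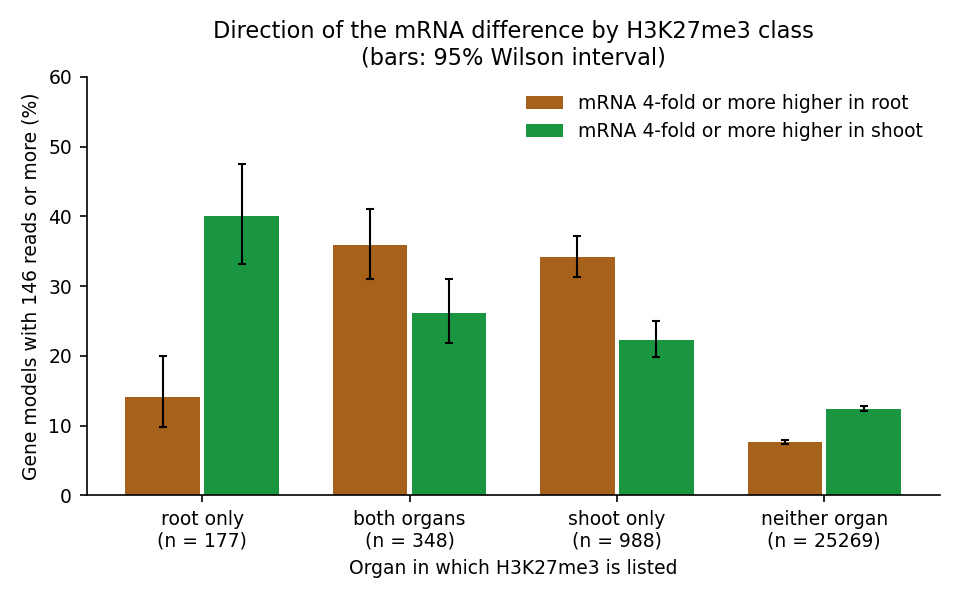
Share of gene models reaching 146 reads in root or shoot (%) whose mRNA was 4-fold or more higher in root (left bar) or in shoot (right bar), by the organ in which H3K27me3 is listed; bars show 95% Wilson intervals. Genes with H3K27me3 in root only are at 14.1% and 40.1%. Those with it in both organs are at 35.9% and 26.1%, and those with it in shoot only at 34.2% and 22.3%.

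The size of the sum rested on few genes. Summed over the 684 genes, mRNA came to 97107 reads in root and 264378 in shoot, a ratio of root over shoot of 0.367, while over all gene models the ratio was 0.99. Without the 10 genes of most shoot reads the sums were 78331 in root and 116528 in shoot, a ratio of 0.672.

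Taking the first gene of each set of equal mark values, the pair furthest to the shoot side had H3K9ac in shoot alone and a short root H3K27me3 region. A gene left out by that rule lay further still, listed at 0 in root with 13625 reads in shoot, and had 145 bp of H3K27me3 in root and H3K4me3, H3K9ac and 582 bp of H3K36me3 in shoot alone. The first gene of its set, with equal marks, had 44 reads in root and 13627 in shoot. Zm039676 had 83 reads in root and 43337 in shoot, a log2 difference of -8.83 on the log2(reads + 12) scale. Its root H3K27me3 was 147 bp long and rested on 5 reads, H3K4me3 was 1264 bp in root and 1530 bp in shoot, and H3K9ac was listed over 1285 bp in shoot and not in root. Another gene of the class had the same mark values, with 42 reads in root and 18197 in shoot, so the pair are not independent cases. Zm173603 was listed at 0 in root and had 8341 reads in shoot. It had 141 bp of H3K27me3 in root, 657 bp of H3K4me3 in root and 1335 bp in shoot, and 1416 bp of H3K9ac in shoot alone. Neither Zm039676 nor Zm173603 had H3K36me3 or DNA methylation listed in either organ.

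The 2 genes furthest to the root side had H3K27me3 and more mRNA in the same organ, which followed from how they were chosen. Zm151579 had 1841 reads in root and was listed at 0 in shoot, with 278 bp of H3K27me3 in root, H3K4me3 of 1048 bp in root and 1037 bp in shoot, and H3K9ac of 2272 bp in shoot alone. Zm182116 had 1498 reads in root and was listed at 0 in shoot. It had 236 bp of H3K27me3 in root, and its active marks were longer in root, with H3K4me3 of 2366 bp in root and 947 bp in shoot and H3K9ac of 1434 bp in root alone. In these 2 genes H3K27me3 rested on 13 and 17 reads.

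**Figure D4:**
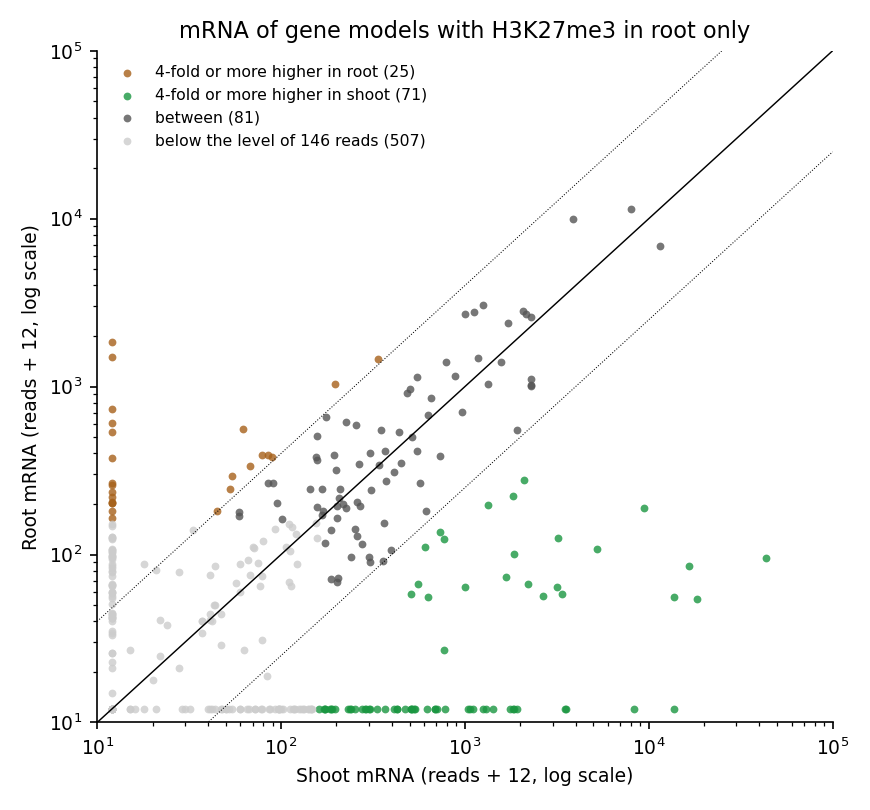
mRNA of the 684 gene models with H3K27me3 in root only, as reads + 12 in root (vertical, log scale) and shoot (horizontal, log scale); the solid line marks equal values and the dotted lines 4-fold differences. Genes listed at 0 lie on the axis value of 12, and the 71 genes higher in shoot reach further from the diagonal than the 25 higher in root.

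Among the genes higher in shoot, H3K9ac and H3K36me3 were mostly listed in shoot without being listed in root. Of these 71 genes, 8 had H3K9ac in root and 57 in shoot (11.3% and 80.3%), and 4 had H3K36me3 in root and 24 in shoot (5.63% and 33.8%). H3K4me3 was on 52 in root and 63 in shoot (73.2% and 88.7%). Over all 3526 gene models higher in shoot the order of the organs was the same, with H3K9ac on 22.0% in root and 69.9% in shoot, H3K36me3 on 26.9% and 38.1%, and H3K4me3 on 47.6% and 74.2%. The marks did not turn round with the mRNA in the 25 genes higher in root: 8 had H3K9ac in root and 13 in shoot, and 17 had H3K4me3 in root and 18 in shoot. Over all 2414 gene models higher in root, H3K9ac was likewise on fewer in root (44.4%) than in shoot (67.7%). H3K36me3 was on 1 of the 25 in root, against 25.8% of all gene models higher in root. None of the 25 had H3K36me3 in shoot, which allows a share of up to 12%, taken here and below as 3 counts of the total. Over all gene models higher in root the share in shoot was 11.1%, within that limit. The 81 genes at this level that lay between had H3K9ac in 41 cases in root and 62 in shoot (50.6% and 76.5%). They had H3K36me3 in 25 and 24 cases (30.9% and 29.6%). Over all gene models that lay between, the shares were 46.3% and 70.7% for H3K9ac and 54.9% and 46.8% for H3K36me3. DNA methylation was on 0 of the 71 genes higher in shoot, in either organ, which allows a share of up to 4.23%. Over all gene models, whatever their mRNA, it was on 3.68% in root and 4.19% in shoot, each within that limit. It was in neither organ for 93.1% of all gene models, so the share with it in root, shoot or both was above that limit. The share over all gene models higher in shoot was not computed.

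Genes called higher in shoot were then set beside each other by H3K27me3 class, without matching the size of the mRNA difference. Of the 71 marked in root only, 54 reached 16-fold and 19 reached 64-fold, against 2158 and 639 of the 3526 over all gene models. Of the genes higher in shoot that had H3K4me3 in shoot, it was listed in root for 50 of 63 with H3K27me3 in root only (79.4%, interval 67.8 to 87.5%), for 51.5% of 171 with H3K27me3 in shoot only (44.0 to 58.8%) and for 63.1% of 2304 with it in neither organ (61.1 to 65.1%). H3K9ac was listed in root for 8 of 57 that had it in shoot (14.0%, 7.29 to 25.3%), against 32.4% of 2185 genes with H3K27me3 in neither organ (30.5 to 34.4%). H3K36me3 was listed in root for 3 of 24 (12.5%, 4.34 to 31.0%), against 52.5% of 1250 (49.7 to 55.2%). With H3K27me3 in shoot only, H3K9ac was listed in root for 22 of 148 (14.9%, 10.0 to 21.5%) and H3K36me3 for 13 of 51 (25.5%, 15.5 to 38.9%), both overlapping the genes marked in root only. Against the class with H3K27me3 in neither organ the intervals of all 3 marks stood apart, but they count gene models of 1 library per mark and organ, and models that share regions make them too narrow. With 1 gene per set of equal mark values, an alternative chosen after seeing the data, the shares were 83.3% of 42, 13.2% of 38 and 14.3% of 14, against 64.6%, 35% and 53.9% of such genes with H3K27me3 in neither organ. Genes with H3K27me3 in both organs had 72.2% (61.4 to 80.8%), 23.0% (14.9 to 33.7%) and 15.8% (5.52 to 37.6%), so their intervals overlapped those of the genes marked in root only.

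**Figure D5:**
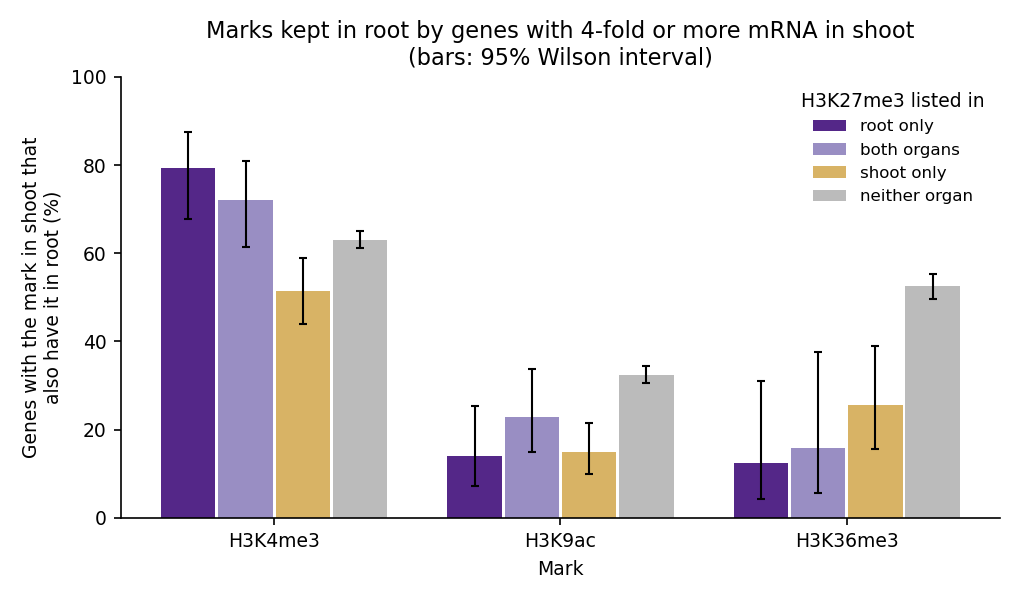
Among gene models with mRNA 4-fold or more higher in shoot, the share (%) of those with H3K4me3, H3K9ac or H3K36me3 in shoot that also have it in root, by the organ in which H3K27me3 is listed; bars show 95% Wilson intervals. With H3K27me3 in root only the shares are 79.4%, 14.0% and 12.5%, and with H3K27me3 in neither organ 63.1%, 32.4% and 52.5%.

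The direction of mRNA was also read by the active marks a gene had in shoot. With H3K4me3, H3K9ac and H3K36me3 in shoot, 0 of 47 genes were higher in root, which allows a share of up to 6.38%, and 24 were higher in shoot (51.1%, interval 37.2 to 64.7%). With H3K4me3 and H3K9ac in shoot, 9 of 79 were higher in root (11.4%, 6.11 to 20.3%) and 32 in shoot (40.5%, 30.4 to 51.5%). With H3K4me3 alone in shoot, 9 of 22 were higher in root (40.9%, 23.3 to 61.3%) and 7 in shoot (31.8%, 16.4 to 52.7%). With none of the 3 in shoot, 3 of 23 were higher in root (13.0%, 4.54 to 32.1%) and 7 in shoot (30.4%, 15.6 to 50.9%), so the share higher in root followed no steady course with the number of shoot marks. Genes with all 3 marks in shoot and H3K27me3 in neither organ were higher in root in 2.39% (2.10 to 2.71%) and higher in shoot in 11.4% (10.7 to 12%). For the same class the shares were 13.4% and 13.9% with H3K4me3 and H3K9ac in shoot, 18.3% and 18.8% with H3K4me3 alone, and 7.56% and 12.1% with none. With all 3 marks in shoot, genes with H3K27me3 in both organs were higher in root in 3.03% and in shoot in 45.5%. Those with H3K27me3 in shoot only were at 4.51% and 27.8%. The interval of the 45.5% overlapped that of the genes marked in root only, and that of the 27.8% did not. With H3K4me3 and H3K9ac in shoot, these classes were higher in root in 40% and 37.1% and higher in shoot in 25.2% and 18.7%. By change of marks among the genes marked in root only, 24 had H3K4me3 alone in root and all 3 marks in shoot. Of these, 16 reached the level, with 14 higher in shoot and 0 in root. Of the 135 genes with H3K4me3 alone in root and H3K4me3 and H3K9ac in shoot, 32 reached the level, 2 were higher in root and 23 in shoot. Where H3K4me3 and H3K9ac were listed in both organs, 29 of 52 genes reached the level, with 5 higher in each organ. Shares over all gene models with the same changes of marks were not computed. Whether these counts are particular to the genes marked in root only was therefore not tested.

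The length of root H3K27me3 showed no steady course with most other values. In 4 groups from the shortest to the longest regions (80 to 196, 198 to 251, 252 to 379 and 380 to 3333 bp), H3K9ac in root was on 11.9%, 17.9%, 17.0% and 14.1% of the genes and mRNA in root was above 0 for 30.7%, 26.0%, 42.4% and 33.5%. The number higher in shoot was 14 of 40, 19 of 45, 19 of 54 and 19 of 38. H3K36me3 was the exception, on 14.2%, 8.09%, 6.67% and 3.53% in root and on 14.2%, 13.9%, 7.88% and 5.88% in shoot. For root the interval of the shortest group (9.81 to 20.1%) did not overlap that of the longest (1.63 to 7.49%). The 17 genes with 1000 bp or more of H3K27me3 in root had H3K4me3 in 13 cases in root and 14 in shoot and H3K9ac in 0 cases in root and 11 in shoot. A count of 0 in 17 allows a share of up to 17.6%. Of these 17, 7 had mRNA above 0 in root and 2 in shoot.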

How the data were processed

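The gene tables of root and shoot were joined by the number in the identifier, since they differ in zero padding. They give, for each gene model and mark, a listed length in bp and a depth. The deposited depths are signal (summed base coverage); H3K27me3 depths are multiples, within 0.05, of a step of 2.14 in root and 1.70 in shoot, which points to scaling by the authors whose basis is not stated. Dividing by the step and by 35 bases gave reads, and 76.6% of root and 75.9% of shoot H3K27me3 values were then whole within 0.01. All mRNA depths were multiples of 35 and were divided by it; summed over gene models they equal 21406798 reads in root and 21615685 in shoot. No source used here gives the depth of the chromatin libraries, the aligner, the peak caller or the build. The 10 peak lists and the small RNA libraries were not used here.

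Groups come from the sample titles. Members and comparisons were chosen with earlier results of these data known. The pseudocount of 12 reads is the 5th percentile and the level of 146 reads the median of listed mRNA values of both organs. Named genes are the 2 of highest and 2 of lowest log2 root over shoot above that level, taking the first of each set of equal mark values. The calls and intervals were tested on simulated data. Gene models share regions, so the intervals are too narrow. Python 3.11.15, pandas 2.3.3, numpy 2.4.6, scipy 1.17.1 and matplotlib 3.10.9 were used.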

Additional observations from a re-analysis of the deposited data

How the results depend on the processing

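Of 47 values recomputed under alternatives, 33 stayed within the interval of the reported share or within 1.5 times the reported count. The other 14 moved beyond it. Counts of genes called by mRNA moved most, while more genes were higher in shoot than in root in every setting run. Higher in root and in shoot numbered 59 and 107 of 684 with no level filter, and 6 and 47 of 177 with a pseudocount 10 times larger. They numbered 42 and 88 of 177 at a 2-fold limit, and 10 and 48 of 170 by mean depth in place of reads. With genes listed at 0 set at the lowest listed depth they numbered 13 and 51 of 177. Over all gene models those settings called 2.96% and 3.48%, 3.27% and 6.66%, 17.9% and 19.2%, 4.57% and 8.24%, and 5.76% and 8.96%. With the larger pseudocount the share of the genes higher in root, 3.39%, was near the 3.27% of all gene models. By mean depth that share was 5.88% against 4.57%, and with genes listed at 0 set at the lowest listed depth 7.34% against 5.76%. With root H3K27me3 at or above the median of 251 bp, 38 of 92 genes were higher in shoot, mRNA was above 0 in root for 37.3%, and H3K36me3 was on 4.96% in root and 6.71% in shoot. With marks counted from 200 bp, DNA methylation was on 1.17% in shoot. With mRNA counted from 146 reads, it was present in 14.0% of the genes in root and 20.9% in shoot. No paired analysis was possible because each assay has 1 library per organ. The number of reads behind each H3K27me3 region, with a median of 9, limits how surely a gene belongs to the class.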

Other observations

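Of the genes with H3K27me3 in root only, the 212 with none of the 3 active marks in either organ had DNA methylation more often and mRNA less often than the other 472, as unmarked gene models did in general. For DNA methylation in shoot the intervals overlapped. DNA methylation was listed for 13 of the 212 in root (6.13%, interval 3.62 to 10.2%) and for 11 in shoot (5.19%, 2.92 to 9.05%), and for 6 (1.27%, 0.584 to 2.75%) and 7 (1.48%, 0.720 to 3.03%) of the 472. The mRNA depth was above 0 for 47 of the 212 in each organ (22.2%, 17.1 to 28.2%), and for 179 of the 472 in root (37.9%, 33.7 to 42.4%) and 210 in shoot (44.5%, 40.1 to 49.0%). Over all gene models with no active mark in either organ, DNA methylation was on 4.23% in root and 4.84% in shoot and mRNA was above 0 for 9.96% in root and 10.1% in shoot. Over all with an active mark the shares were 2.50% and 2.79% for DNA methylation and 53.0% and 53.3% for mRNA. Root H3K27me3 rested on a median of 9 reads in both sets. Of the 212 genes, 20 reached 146 reads, of which 3 were higher in root (15%) and 5 in shoot (25%). Over all gene models with no active mark in either organ that reached this level, the shares were 7.85% and 13.1%. The intervals of the 20 genes were wide and held those shares.

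Over all 684 genes, marked or not, 8 had 10 or more units of scaled root H3K27me3 depth per base, with a highest value of 127, while the median over the 684 genes was 2.91. Of these 8, H3K4me3 was on 4 in root and 4 in shoot, H3K36me3 on 3 in root and 2 in shoot, and 2 reached 146 reads of mRNA with none called higher in either organ.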
